A study of Mus musculus with 6 samples.

Results

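Liver RNA of 10 mouse genes that carry fatty acids into mitochondria and break them down there was compared between mice on regular chow and mice on soy-enriched chow. The genes were Cpt1a, Slc25a20 and Cpt2 of the carnitine shuttle, the acyl-CoA dehydrogenases Acadvl, Acadl, Acadm and Acads, the trifunctional protein genes Hadha and Hadhb, and Etfdh. They were chosen by name, and a non-control probe belonged to a gene when its RefSeq accession did. This gave 12 of the 56605 probes on the array and 10 of the 22911 genes that could be named, with 2 probes each for Cpt2 and Hadhb. Control livers came from 3 male mice aged 12 weeks that were fed regular pelleted chow only for 4 weeks. Soy livers came from 3 males of the same age whose chow was 25% soy bean powder and 75% regular food over the same time. The strain, the hour of collection and any fasting were not given in the sources used here. By the study's own analysis the soy chow also held more fat, protein and sugar and less available carbohydrate. Soy and these changes of the chow cannot be told apart. Each mouse had 1 Agilent 1-colour array. Slide 1 carried the first 2 control livers together with soy 1, slide 2 carried soy 2 only, and the remaining pair shared slide 3. Spots well above background numbered 36366 to 38163 for control and 31308 to 32498 for soy livers, yet all 12 probes were well above background on all 6 arrays and none was saturated. Each was a whole piece of liver, so fewer cells of a type and less RNA per cell cannot be told apart.

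Long-chain fatty acids enter mitochondria as carnitine esters. CPT1A on the outer membrane makes the ester, the carrier SLC25A20 exchanges it for free carnitine across the inner membrane, and CPT2 inside turns it back into an acyl-CoA. An acyl-CoA dehydrogenase chosen by chain length then opens each round of beta-oxidation, the trifunctional protein performs the later steps on long chains, and ETFDH hands the electrons to ubiquinone of the respiratory chain. In the liver this route feeds ketone body synthesis during fasting, many of its genes are targets of the fatty acid receptor PPARA, and malonyl-CoA blocks it at CPT1.

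Most of these genes read slightly higher in soy livers, and Cpt1a read lower, but no change passed the test. By the brightest probe of each gene, 8 of 10 had a higher mean in soy, with a median soy minus control difference of 0.30 on the log2 scale (1.23-fold), beside -0.01 over all probes and -0.01 over the 27310 probes well above background on all 6 arrays. The lowest difference was -0.51 and the highest 0.54. With limma and the Benjamini-Hochberg method over all 56605 probes, 0 of the 10 genes passed an adjusted p under 0.05 with a fold above 1.5 or under 0.66, as did 0.350% of all probes (0.630% of those well above background on all arrays). At an unadjusted p under 0.05 the count was 7 of 10, 6 of them higher and 1 lower in soy, beside 11.5% of all probes (5.34% higher, 6.14% lower) and 18.1% of those well above background on all arrays (9.18% higher, 8.94% lower). Control and soy values did not overlap for 7 of the 10 genes, 6 higher and 1 lower, where 18.0% of all probes (7.75% higher, 10.3% lower) and 23.8% of the well-measured ones (11.7% higher, 12.1% lower) did not overlap. Adjusted p ranged from 0.0962 for Slc25a20 to 0.987 for Acadl, and the standard errors from 0.10 to 0.15.

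**Figure D1:**
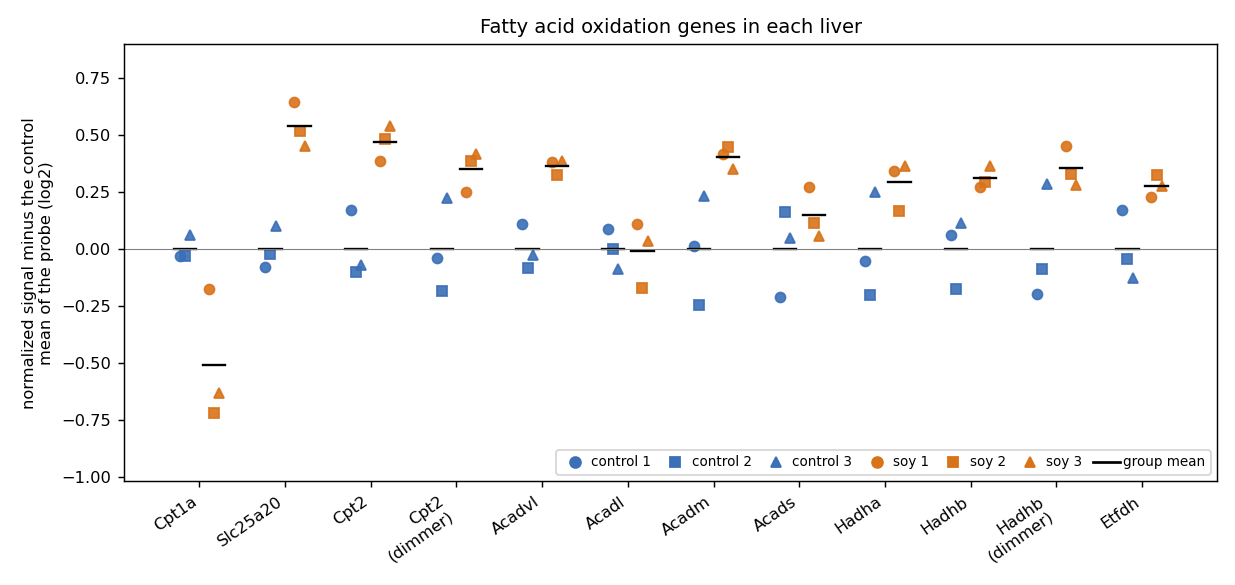
Normalized signal (log2) of each of the 12 probes in each liver, relative to the control mean of that probe, with blue symbols for control, orange for soy, a shape for each replicate and black bars for group means. Soy values of Slc25a20, Cpt2, Acadvl, Acadm and Etfdh lie above every control value, those of Cpt1a lie below, and those of Acadl are mixed.

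The carnitine shuttle held the gene with the largest negative difference as well as those with the largest positive ones. Cpt1a (NM_013495), which encodes the liver form of the outer-membrane enzyme, had a normalized signal of 15.28, 15.28 and 15.38 (log2) in control livers and 15.14, 14.59 and 14.68 in soy livers. All soy values lay below all control values, with soy 1 nearest to the controls and soy 2 farthest. The difference was -0.51 (SE 0.15, 95% confidence interval -0.86 to -0.16, adjusted p = 0.256), or 0.702-fold, and it was -0.14 within slide 1 and -0.70 within slide 3. Slc25a20 (NM_020520), the carrier of the inner membrane, read 10.62, 10.68 and 10.80 in control and 11.35, 11.22 and 11.15 in soy livers. Its lowest soy value stood 0.35 above its highest control value, the widest such gap among the 10 genes. The difference was 0.54 (SE 0.10, interval 0.30 to 0.78, adjusted p = 0.0962), or 1.45-fold, with 0.70 within slide 1 and 0.35 within slide 3. Cpt2 (NM_009949), the enzyme on the matrix side, read 14.66, 14.38 and 14.41 in control and 14.87, 14.97 and 15.03 in soy livers. Here control 1 was the highest of the controls and still below every soy liver. The difference was 0.47 (SE 0.11, interval 0.21 to 0.73, adjusted p = 0.159). A dimmer Cpt2 probe gave 0.35 (SE 0.13, adjusted p = 0.353), also without overlap, though by a gap of only 0.03.

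The sequences just upstream of the shuttle genes are shown because these 3 genes act in a row. None of the 3 passed, and a link between these letters and the readings was not tested. Each is the 250 bases before the gene's start, from RefSeq on GRCm38.p6, with capitals for the hexamer AGGTCA, which nuclear receptors such as PPARA bind in pairs, and for the GC box GGGCGG, on either strand. The Cpt1a window is chr19:3323051-3323300 on the plus strand, that of Slc25a20 is chr9:108661886-108662135 on the plus strand, and that of Cpt2 is chr4:107923590-107923839 on the minus strand.
Cpt1a: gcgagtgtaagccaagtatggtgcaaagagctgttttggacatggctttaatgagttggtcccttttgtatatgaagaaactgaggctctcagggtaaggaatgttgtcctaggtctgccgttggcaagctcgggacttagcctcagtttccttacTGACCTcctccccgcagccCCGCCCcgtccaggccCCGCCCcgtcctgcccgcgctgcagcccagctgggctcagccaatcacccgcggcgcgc
Slc25a20: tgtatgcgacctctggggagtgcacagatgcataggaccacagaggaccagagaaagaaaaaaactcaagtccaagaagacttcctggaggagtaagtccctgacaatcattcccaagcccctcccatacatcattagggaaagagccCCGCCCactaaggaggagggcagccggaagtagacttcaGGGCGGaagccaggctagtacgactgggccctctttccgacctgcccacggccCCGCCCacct
Cpt2: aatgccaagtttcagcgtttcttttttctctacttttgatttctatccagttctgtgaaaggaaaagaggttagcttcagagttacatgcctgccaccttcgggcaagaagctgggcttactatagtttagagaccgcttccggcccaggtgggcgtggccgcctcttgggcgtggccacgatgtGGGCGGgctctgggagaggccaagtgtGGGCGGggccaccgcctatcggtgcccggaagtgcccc

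The AGGTCA hexamer was found in the windows of 3 of the 10 genes, namely Acadm, Acadvl and Cpt1a, and in 14.0% of the 32851 windows of all genes in the table. The GC box was found in 7 of the 10 and in 32.7% of all windows. The GC box of Hadha lies in the 228 bases that its window shares with that of Hadhb, so this site is counted for both genes. The looser hexamer AGGNCA repeated in the same direction after 1 base of any kind, on either strand, was in the windows of 0 of the 10 and in 0.338% of all. These matches describe letters only, and sequence farther from the starts was not searched.

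Because CPT1A and CPT2 perform opposite reactions on the same carnitine ester, their signals were also set against each other within each liver, a quantity chosen after the values were seen. Cpt2 minus Cpt1a was -0.62, -0.90 and -0.96 (log2) in control livers and -0.27, 0.38 and 0.35 in soy livers. The soy livers were all above the controls, by a gap of 0.36, with soy 1 closest to them. The means were -0.83 ± 0.18 and 0.15 ± 0.36 (SD, n = 3), a shift of 0.98 between diets. No test is given, since the separation follows from that of each gene on its own. The shift was 0.50 within slide 1 and 1.31 within slide 3, each of which held a single soy liver, so slide and mouse cannot be told apart. Since the zero point of such a ratio between probes is arbitrary, only its shift between the diets can be read.

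Of the acyl-CoA dehydrogenases, those for very long and for medium chains read higher in soy on every array, and those for long and for short chains overlapped between the diets. Acadvl (NM_017366), the very-long-chain enzyme of the inner membrane, read 16.00, 15.80 and 15.86 in control and 16.27, 16.21 and 16.27 (log2) in soy livers. The soy values were close together (mean 16.25, SD 0.03, n = 3). The difference was 0.36 (SE 0.10, interval 0.14 to 0.59, adjusted p = 0.201), with similar values within slide 1 (0.37) and slide 3 (0.41). Acadm (NM_007382), the medium-chain enzyme, read 15.63, 15.37 and 15.85 in control and 16.04, 16.07 and 15.97 in soy livers. Its controls spread widely (SD 0.24, the widest control spread among the 10 genes) while its soy livers stayed close together (SD 0.05). The difference was 0.41 (SE 0.13, interval 0.09 to 0.72, adjusted p = 0.307), and it was 0.53 within slide 1 but 0.12 within slide 3. Acadl (NM_007381), the long-chain enzyme, read 13.71, 13.62 and 13.53 in control and 13.73, 13.45 and 13.65 in soy livers. The highest and the lowest of the 6 values were both soy livers, and the difference of -0.01 (SE 0.11, adjusted p = 0.987) had an interval from -0.27 to 0.25. Acads (NM_007383), the short-chain enzyme, read 13.62, 13.99 and 13.88 in control and 14.10, 13.95 and 13.89 in soy livers. Here control 2 exceeded soy 2 and soy 3, and the difference was 0.15 (SE 0.13, interval -0.15 to 0.44, adjusted p = 0.709). With 1 array left out it ranged from 0.04 (without control 1) to 0.23 (without control 2).

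HADHA and HADHB are the alpha and beta subunits of the trifunctional protein, and their genes lie head to head. On GRCm38.p6 the RefSeq starts of Hadha (minus strand) and Hadhb (plus strand) on chromosome 5 are separated by 272 bases, and their 250-base upstream windows share 228 bases. The window of Hadhb, chr5:30155003-30155252 on the plus strand, is shown because it covers most of the sequence between both genes, with capitals as above.
Hadhb: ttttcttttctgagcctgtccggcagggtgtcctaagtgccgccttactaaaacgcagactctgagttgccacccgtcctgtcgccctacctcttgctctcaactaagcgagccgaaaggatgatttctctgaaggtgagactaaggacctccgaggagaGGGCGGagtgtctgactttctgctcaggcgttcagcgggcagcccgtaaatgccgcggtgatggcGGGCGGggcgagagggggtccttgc
The Hadha probe (NM_178878) read 11.84, 11.69 and 12.14 in control and 12.23, 12.06 and 12.25 (log2) in soy livers. Control 3 lay above soy 2, so the groups overlapped. The brighter Hadhb probe (NM_001289798) read 15.19, 14.95 and 15.24 in control and 15.39, 15.42 and 15.49 in soy livers, where all soy values were above all controls. The differences of the 2 subunits were close in size, 0.29 for Hadha (SE 0.14, interval -0.03 to 0.61, adjusted p = 0.475) and 0.31 for Hadhb (SE 0.11, interval 0.05 to 0.57, adjusted p = 0.339). By these probes control 2 was the lowest liver and control 3 the highest of the controls in both genes, while the lowest liver by the dimmer Hadhb probe was control 1. The dimmer Hadhb probe gave 0.35 (SE 0.14, adjusted p = 0.402), with soy 3 just below control 3, so the 2 probes of this gene differed on whether the groups overlap. With 1 array left out the Hadha difference ranged from 0.19 (without control 2) to 0.42 (without control 3).

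Etfdh (NM_025794), whose product passes electrons from all acyl-CoA dehydrogenases on to ubiquinone, read 14.94, 14.73 and 14.65 in control and 15.00, 15.10 and 15.05 (log2) in soy livers. The groups did not overlap, with control 1 lying 0.06 below the lowest soy liver. The difference was 0.28 (SE 0.11, interval 0.02 to 0.53, adjusted p = 0.399).

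Taken over the 10 genes, all 3 soy livers stood above the controls. Relative to each gene's control mean, the median over the genes was 0.04, -0.06 and 0.06 on control 1 to 3 and 0.31, 0.31 and 0.36 on soy 1 to 3. The median difference was 0.34 within slide 1 and 0.19 within slide 3, with 9 of 10 genes higher in soy in each, and Cpt1a lower in both. Control values spread more than soy values for 7 of the 10 genes. With these errors, the 95% interval of the fold reached 1.5 for 5 of the 10 genes, so a rise of that size was not resolved for them, and that of Cpt1a (0.549 to 0.898) reached below 0.66, so a fall past that limit was not resolved either.

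**Figure D2:**
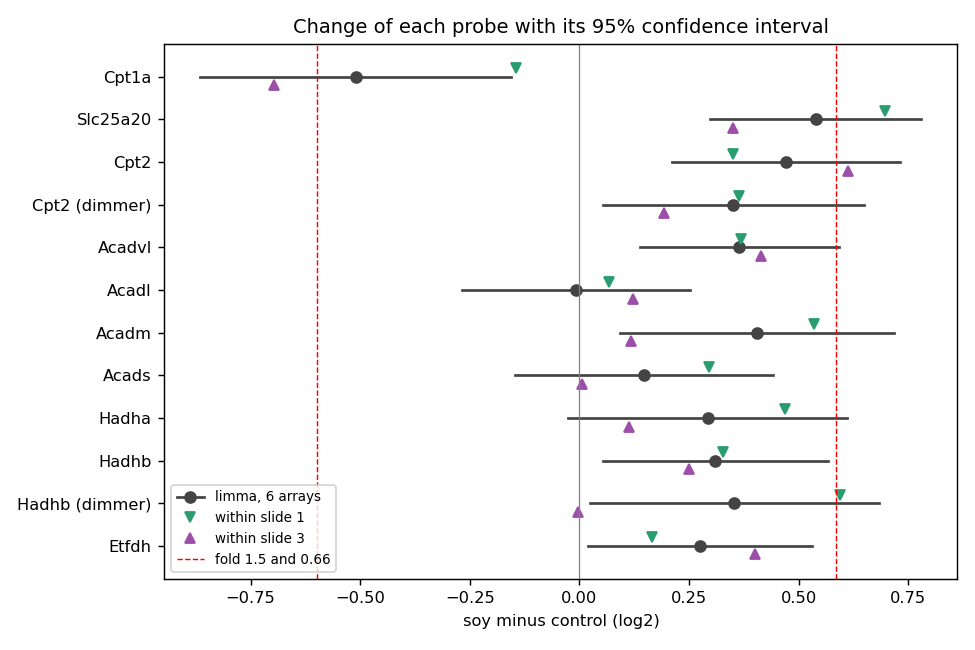
Soy minus control difference (log2) of each of the 12 probes with its 95% confidence interval from limma over 6 arrays, and the differences within slide 1 (green) and within slide 3 (purple). Dashed red lines mark the folds of 1.5 and 0.66; the interval of Cpt1a lies below 0, those of Slc25a20, Cpt2 and Acadvl above it, and that of Acadl spans it.

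Other genes of carnitine handling and beta-oxidation are given by lists written from general knowledge. Of 8 genes for carnitine transfer and fatty acid activation, 1 passed, in the higher direction (0.350% of all probes and 0.630% of well-measured ones passed in either direction), and the list median was 0.35. Without overlap, 4 genes were higher (7.75% of all probes, 11.7% of well-measured ones) and 1 was lower (10.3% and 12.1%), namely Acsl5, an acyl-CoA synthetase, at -0.47 (adjusted p = 0.195). Crat (NM_007760), carnitine acetyltransferase, which buffers acetyl-CoA by making acetylcarnitine, read 11.04, 10.40 and 11.48 in control and 12.78, 12.71 and 12.95 (log2) in soy livers. It rose by 1.84 (SE 0.25, adjusted p = 0.0388), and its dimmer probe gave 0.66 (adjusted p = 0.117). Crat passed without control 2 (adjusted p = 0.0438) or control 3 (0.0258), and not without control 1 (0.0953), soy 1 (0.120), soy 2 (0.129) or soy 3 (0.143), nor with slide as a block (0.137) or by the mean of its probes (1.25, adjusted p = 0.0621). Of 16 other mitochondrial beta-oxidation enzymes, 1 passed, in the higher direction, 14 had a higher mean in soy, 7 had higher values without overlap (background 7.75%), and the list median was 0.19. That gene was Acot2 (NM_134188), a mitochondrial thioesterase that frees fatty acids from CoA, at 8.34, 8.30 and 8.73 in control and 9.93, 9.92 and 9.87 in soy livers. Acot2 rose by 1.44 (SE 0.13, adjusted p = 0.0130), but a probe for this gene may share signal with its near-identical neighbour Acot1. It passed without each control array (0.0431, 0.0438 and 0.0151) and not without soy 1 (0.0571), soy 2 (0.0703) or soy 3 (0.0556), nor with slide as a block (0.0999).

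Lists of related mitochondrial routes had medians near 0. Of Acad8, Acadsb, Ivd and Gcdh, 0 of 4 passed and the median was -0.07. The largest differences were those of Gcdh, the glutaryl-CoA enzyme (-0.23, adjusted p = 0.524, lower without overlap), Ivd (-0.07) and Acadsb (-0.07). Of the 4 enzymes that convert the propionyl-CoA left by odd chains, 0 passed and the median was 0.02, with -0.11 for Pcca, 0.08 for Mcee and 0.06 for Pccb. Of 19 genes that follow mitochondrial content, such as respiratory chain and import subunits, 0 passed, 0 were under an unadjusted p of 0.05 (11.5% of all probes, 18.1% of well-measured ones), and the median was 0.04. The largest differences there were 0.25 for the citrate synthase gene Cs, -0.21 for the chaperone gene Hspd1 and -0.19 for the porin gene Vdac2, and 1 gene was lower without overlap, namely Timm23 of the import machinery (-0.11). Over all probes 10.3% were lower without overlap, and 12.1% of the well-measured ones. The medians of these lists and of the 10 oxidation genes are set side by side here, and the difference between lists was not tested.

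**Figure D3:**
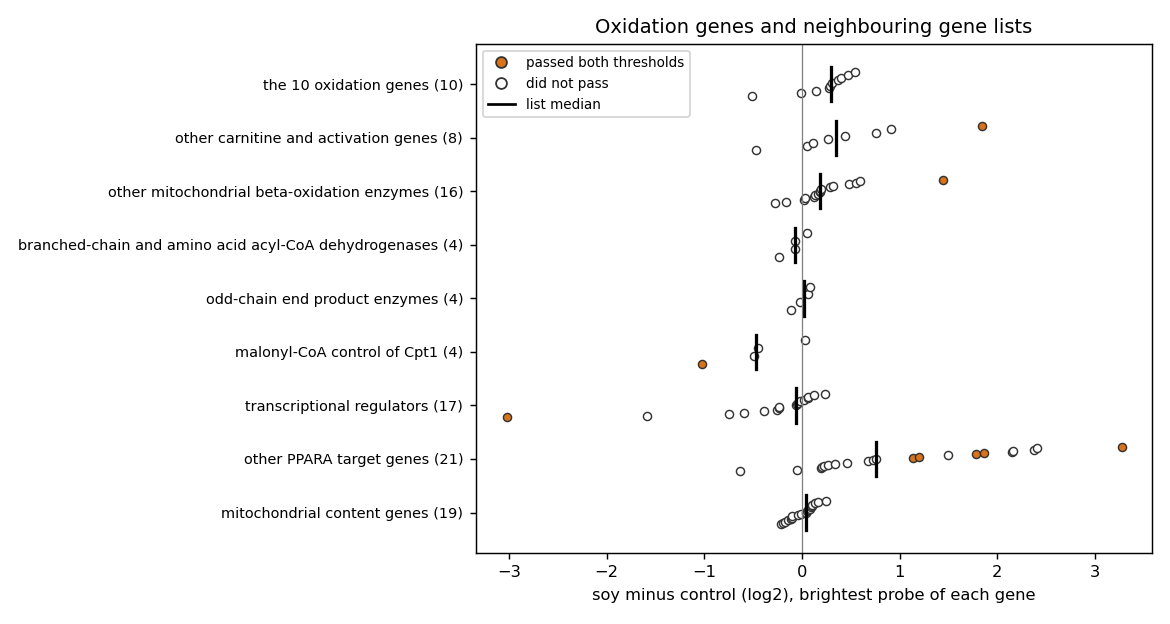
Soy minus control difference (log2) of the brightest probe of each gene, by gene list, with the number of genes in brackets, a filled symbol for a gene that passed both thresholds and a black bar for the list median. The 10 oxidation genes have a median of 0.30 and no filled symbol, the 21 other PPARA target genes a median of 0.76 and 5 filled symbols.

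Malonyl-CoA, the inhibitor of CPT1, is made by acetyl-CoA carboxylases and removed by malonyl-CoA decarboxylase. Of the 4 genes listed, 1 passed, in the lower direction (0.141% of all probes, 0.245% of well-measured ones), and the median was -0.47. Without overlap, 2 were lower (10.3% of all probes, 12.1% of well-measured ones) and 0 higher. Acacb (NM_133904), the carboxylase at the mitochondrial membrane, read 13.36, 12.96 and 12.92 in control and 11.93, 12.13 and 12.11 (log2) in soy livers. It fell by 1.03 (SE 0.14, adjusted p = 0.0401), but its other probe gave -0.08 (SE 0.13) and did not pass, so the probes of this gene disagree. Acacb passed in none of the 6 fits with an array left out (adjusted p = 0.0587 to 0.131), nor with slide as a block (0.183) or by the mean of its probes (-0.55, adjusted p = 0.133). The cytosolic carboxylase gene Acaca gave -0.45 (adjusted p = 0.304), lower without overlap but barely so, since control 3 and soy 1 both round to 13.12. The citrate lyase gene Acly gave -0.50 (adjusted p = 0.364) and the decarboxylase gene Mlycd 0.03 (adjusted p = 0.949).

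Of 17 transcriptional regulators of the pathway, 1 passed, in the lower direction (0.141% of all probes), 12 had a lower mean in soy, and the median was -0.06. Without overlap, 3 were lower (10.3% of all probes, 12.1% of well-measured ones) and 0 higher. Besides Lpin1 these were the clock repressor genes Nr1d1 (-1.58, adjusted p = 0.106) and Nr1d2 (-0.74, adjusted p = 0.317). Lpin1 (NM_001130412), a phosphatidate phosphatase that also coactivates PPARA in liver, read 15.06, 14.40 and 14.25 in control and 12.16, 11.04 and 11.44 (log2) in soy livers. It fell by 3.02 (SE 0.31, adjusted p = 0.0172) and passed on 3 of 3 probes, with -3.16 and -0.81 on the dimmer ones, but it did not pass without control 2 (0.0531), soy 2 (0.0703) or soy 3 (0.0732), nor with slide as a block (0.0604). Lpin1 was named in the study from the same livers. The receptor gene Ppara itself differed by 0.07 (SE 0.20, interval -0.40 to 0.53) and the coactivator gene Ppargc1a by 0.02 (SE 0.40, interval -0.90 to 0.94), with wide intervals in both.

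**Figure D4:**
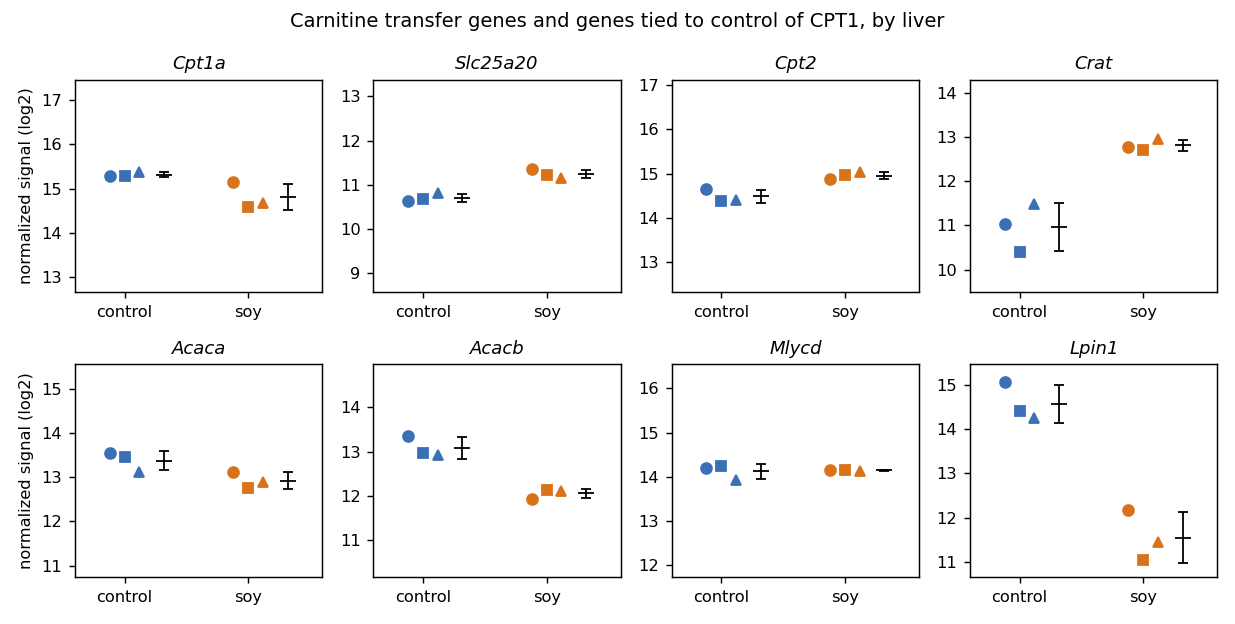
Normalized signal (log2) in each liver for the carnitine genes Cpt1a, Slc25a20, Cpt2 and Crat, the malonyl-CoA genes Acaca, Acacb and Mlycd, and Lpin1, with a shape for each replicate, and mean ± SD (n = 3) in black. Every panel spans the same range of log2 units; Lpin1 and Crat show the widest separation, and Mlycd overlaps.

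PPARA targets outside the 10 genes included several that rose. Of 21 such genes, 5 passed, all higher in soy (background 0.208% for this direction), 19 had a higher mean, 14 had higher values without overlap (7.75% of all probes, 11.7% of well-measured ones), and the median was 0.76. The gene lower without overlap was Angptl4, a secreted inhibitor of lipoprotein lipase, at -0.64 (adjusted p = 0.0689). The 5 were Cyp4a14 (omega-hydroxylation), Pdk4 (a kinase that shuts pyruvate dehydrogenase), Acot1 and Acot4 (thioesterases of the cytosol and the peroxisome) and Acaa1b (peroxisomal thiolase). Acaa1a did not pass by its brightest probe (0.34, adjusted p = 0.426), but its dimmer probe gave 0.84 and passed, so the probes of that gene disagree. Acot4 (NM_134247) read 9.30, 9.23 and 9.70 in control and 10.87, 10.37 and 10.58 in soy livers, a rise of 1.19 (SE 0.17, adjusted p = 0.0457), and its dimmer probe gave 0.71 (adjusted p = 0.195). It passed without control 3 (0.0431), and neither in the other fits with an array left out (0.106 to 0.151) nor by the mean of its probes (0.95, adjusted p = 0.0964). Cyp4a14 rose by 3.27 (adjusted p = 0.00785), Pdk4 by 1.87 (0.0151), Acot1 by 1.78 (0.0316) and Acaa1b by 1.13 (0.0194), and the Cyp4a14 probe was well above background on 2 of 3 control arrays. The Cyp4a14 difference was 4.60 with the processed signal, so its size depended on that setting. Cyp4a14 passed with each array left out, Pdk4 not without soy 1 (0.0621), soy 2 (0.0703) or soy 3 (0.0538), Acot1 not without control 1 (0.0780) or any soy array (0.101, 0.125 and 0.122), and Acaa1b not without control 1 (0.0546) or any soy array (0.0721, 0.0971 and 0.0810). With slide as a block Cyp4a14 passed (0.0269), and Pdk4 (0.102), Acot1 (0.139), Acot4 (0.154) and Acaa1b (0.136) did not. Cyp4a14, Pdk4, Acot1 and Acaa1b were named in the study from the same livers, so their presence here is not independent evidence of a direction.

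Markers of liver cell types were measured beside these genes, and 0 of 66 genes in 9 lists passed, with 12 under an unadjusted p of 0.05 (11.5% of all probes, 18.1% of well-measured ones). These were 4 of 10 hepatocyte, 4 of 8 periportal, 2 of 9 pericentral and 2 of 7 stellate cell markers, with 0 in the other lists, some of whose genes were not well above background. The hepatocyte list (10 genes, median -0.11) included Alb (-0.14) and Tat (-0.76, adjusted p = 0.323), had 3 genes lower and 0 higher without overlap and ranged up to 0.46, and the brightest probe of all 10 was well above background on all arrays. The periportal list (8 genes), where beta-oxidation is known to be stronger, had a median of -0.26, with 3 genes lower without overlap (10.3% of all probes, 12.1% of well-measured ones) and 1 higher (7.75% and 11.7%), and its summed linear signal was 1332349, 1294501 and 1158406 in control and 1134980, 922996 and 1005340 in soy livers. Its largest difference was that of Sds (-1.13, adjusted p = 0.152). The summed signal was also lower in every soy liver for the pericentral list, at 547261, 568743 and 572565 in control and 521409, 470430 and 417348 in soy livers, and it overlapped for the hepatocyte list. The pericentral list (9 genes) had a median of -0.20, with Cyp2e1 at -0.19 and Oat at -1.28 (adjusted p = 0.0591), and without overlap Oat was lower and Lgr5 higher (0.75, adjusted p = 0.254). Kupffer cell markers (7 genes) had a median of 0.15, with Cd5l at 0.45 and Marco at -0.73. Endothelial markers (7 genes) had a median of -0.06, with Clec4g at 0.20 and Lyve1 at -0.66. Stellate cell markers (7 genes) had a median of -0.08, with Dcn at -0.08 and Col1a1 at -0.99 (adjusted p = 0.317). Cholangiocyte markers (6 genes) had a median of -0.01, with Spp1 at 0.15 and Cftr at -0.23 (well above background on 3 control and 0 soy arrays). Adipocyte markers (7 genes) had a median of -0.14, with Fabp4 at -0.15 and Cfd at 0.41 (well above background on 1 control and 1 soy array), and Adipoq and Plin1 were well above background on no array. Red cell and muscle markers (5 genes) had a median of 0.12, with Hba-a1 at 0.26 and Alas2 at 0.42, and the muscle genes Ckm and Myh4 were well above background on no array. The part of these markers in the values of the 10 oxidation genes was not tested.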

How the data were processed

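The authors hybridized 1 array per mouse and deposited Agilent Feature Extraction 11.5.1.1 output, in which the median intensity of spots and of their local background is neither corrected nor scaled. They also deposited a table of log2 values with equal quantiles across arrays, whose medians are 7.33 to 7.34, and which differed from the values used here by a median of 0.01 per array. Its background step is not stated. The deposited processed intensity served as an alternative.

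Here the median signals were corrected by normexp (offset 50), log2 transformed, quantile normalized and averaged per probe, leaving out control spots and outliers. limma 3.58.1 (R 4.3.3) compared 3 soy with 3 control arrays over 56605 probes, with Benjamini-Hochberg adjustment. Genes with adjusted p below 0.05 whose fold was also above 1.5 or under 0.66 are said to pass. Each gene is given by its brightest probe, that is the one of highest average over the 6 arrays. RefSeq accessions gave a symbol to 58.3% of probes through a GRCm38.p6 table, while the array design used another build, so no probe positions are given. The number of arrays limits the precision. Each mouse had 1 array and the main fit had no slide term, so p-values measure the spread between arrays of a group. In that spread mouse, array and slide cannot be told apart.

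The 10 genes and the other lists were chosen with earlier results of these data known. Named are the 10 genes, genes of other lists that passed, the 3 largest differences of well-measured genes in a list where none passed, and for cell types the brightest and the most changed gene, except 1 gene that is not reported here. Ppara, Ppargc1a, Acaca, Acly, Mlycd, Acad8, Acsl5, Acaa1a, Angptl4, Nr1d1, Nr1d2, Timm23, Lgr5, Adipoq, Plin1, Ckm and Myh4 were added after their values were seen. The 17 alternatives changed background correction, scaling, values, filter, variance model, probe choice, replicate or slide block, threshold, or left out an array. The fit was run on simulated data without slide effects, which checked only the recovery of added changes and not the dependence on slide. Python 3.11.15, pandas 2.3.3 and matplotlib 3.10.9 made tables and plots.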

Additional observations from a re-analysis of the deposited data

How the results depend on the processing

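None of the 10 oxidation genes passed both thresholds under any of the 17 alternatives. Their median difference stayed between 0.24 and 0.36 with 1 array left out and between 0.28 and 0.31 otherwise. Of the 10, Acadl changed sign, to 0.026 with the processed signal, 0.091 with slide as a block, and between -0.067 and 0.073 with 1 array left out (higher in soy without control 1 and without soy 2). With the processed signal Slc25a20 (adjusted p = 0.0417) and Cpt2 (0.0402) crossed the adjusted threshold, but not the fold limit. Probes that passed on the whole array, 198 here, numbered 13138 with the processed signal, 299 with the 75th percentile shift, 493 among probes well above background, 77 with the replicate block, 24 with slide as a block, and 23 to 199 with 1 array left out. Of them 59.6% were higher in soy, against 90.8% with the processed signal and 45.8% with slide as a block. The median difference of all probes was -0.01 here and 0.13 with both the processed signal and the percentile shift. That of probes well above background on all 6 arrays was -0.01, -0.003 and 0.02. Of the 93 genes of the other pathway lists 9 passed, 15 with the processed signal, 4 with the replicate block, 1 with slide as a block, and 1 to 8 with 1 array left out. The cause of these shifts was not tested. Replicate numbers were treated as names only in the main fit. The deviations of same-numbered livers correlated weakly (r of 0.12, -0.06 and 0.11 over 27282 probes), and the positive values were those of pairs on 1 slide. Control 2 and soy 1, also on slide 1, gave 0.09, while control 3 and soy 2, which were on different slides, gave 0.10. Differently numbered livers ranged from -0.20 to 0.10.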
